A study of Mus musculus with 36 samples.

Results

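The fracture callus of RAG1-/- mice at day 7 was compared with intact RAG1-/- bone, to ask which transcripts of the bone had changed 1 week into healing when mature T and B cells were missing. The arrays were chosen by the genotype and day in their titles, 3 at day 7 and 3 at day 0, so that 6 of the 36 arrays of the series were compared. The RAG1-/- mice carry a homozygous knockout of Rag1 on the C57BL/6N background, cannot recombine antigen receptor genes and have no mature T or B cells in any tissue, while natural killer and myeloid cells are left. All animals were males of 8 weeks. Day 7 was taken 7 days after a closed, pinned fracture of the diaphysis of the left femur, from the fractured bone with the adjoining diaphysis and with the soft tissue removed. Day 0 was the same region of femora that had not been fractured, although the labels name the tissue of all arrays, those of day 0 included, as callus. The rest of the series holds RAG1-/- bone at days 3, 14, 21 and 28 and the same 6 days of wild-type (WT) C57BL/6N mice. For every group the RNA of 5 mice was mixed into 1 pool that went on 3 arrays, which are therefore technical, and every p-value below measures the spread between arrays and not the spread between mice.

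A broken long bone heals through a haematoma that myeloid cells enter first, a soft callus of fibrous tissue and cartilage, mineralization of that callus, and remodelling of the woven bone by osteoclasts. Osteoclasts are multinucleated cells of the macrophage lineage that acidify the bone surface and digest its collagen with cathepsin K. Osteoblasts lay down type I collagen and the proteins that bind mineral, among them osteocalcin and osteopontin. Neutrophils fill their granules in the marrow in sequence, the primary granules with myeloperoxidase and elastase in early precursors and the secondary and tertiary granules with lactoferrin, cathelicidin and lipocalin later.

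In the callus of day 7, 3 osteoclast genes, osteocalcin and osteopontin, 4 genes of matrix proteases and their inhibitors and several H2A histone genes were higher than in intact bone, while 12 of 20 neutrophil genes and a few genes of the sarcomere, of lipid storage and of the respiratory chain were lower. Values are quantile normalized log2 intensities, in which a difference of 1 is a 2-fold change of signal, and a gene was called at an adjusted p under 0.01 and over 2-fold (limma, Benjamini-Hochberg over 10291 tested genes). By this rule 105 genes were higher at day 7 (1.02% of those tested) and 185 were lower (1.80%). Only 21 of them changed over 4-fold, 2 upwards and 19 downwards, and the median difference over all tested genes was 0.03. In all 290 called genes the day 7 arrays lay on one side of the day 0 arrays. The limits on p and fold make this likely, and no share over all tested genes is set beside it. Uncalled genes such as Col1a1 and Prtn3 did not overlap either, so it is no separate support for the calls. The spread in this fit was shared with the WT arrays, which were noisier (median residual SD 0.39 over 36 arrays and 0.16 over the 18 RAG1-/- arrays). A fit on the RAG1-/- arrays alone called 171 genes higher and 276 lower, and all 105 and 185 were among them. Plau, Serpina3n, Mfap4, Sox17, Cxcl16, Cd9, Sdhb and Junb, described below, lost the call whichever 1 of the 6 arrays was left out (highest adjusted p from 0.0142 for Serpina3n to 0.103 for Sox17). Enpp1 and Mrc1 lost it without some of the arrays (adjusted p up to 0.0123 and 0.0158), Fgf1 without 1 of them (0.0183), and Myl4 and Serping1 fell just under 2-fold without 3 of them and 1 of them (0.99 and -0.99). All of these were called on the RAG1-/- arrays alone.

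The arrays of each group were close to each other, with correlations of 0.995 within day 0 and 0.991 to 0.992 within day 7, and of 0.973 between the groups. The group nearest to day 7 was day 3 of the same genotype, at 0.981. Rag1 stayed at background, with a mean of 4.61 at day 0 and 4.77 at day 7, although it was as low in WT bone (4.83 at day 0), so that it did not check the genotype. Cd3e (4.62 and 4.56) and Cd3d (4.51 and 4.42), chains of the T cell receptor complex, also lay below the filter of 4.72, the median probe of the array, and were not tested. Of the lymphocyte lists, 11 of 28 T and natural killer cell genes, 8 of 18 early B genes and 6 of 17 mature B genes on the array passed the filter, and none of them was called. Of the tissue markers, Col1a1 (12.56), the main collagen of bone, and Pvalb (15.23), a calcium buffer of fast muscle, were bright in intact bone. Pvalb read the top value of the scale, 15.23, on all 6 arrays, where no difference can be measured. A lower signal in such bulk RNA can come from fewer cells of a type or from less RNA in each cell, and these cannot be told apart.

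**Figure D1:**
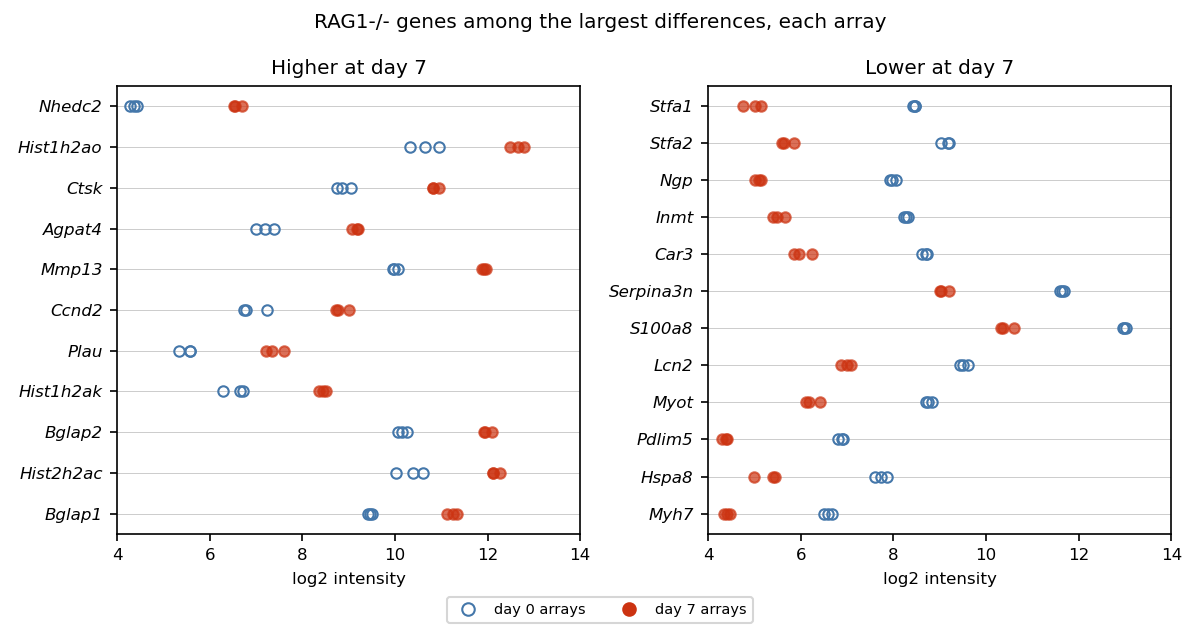
Log2 intensity of single genes on each of the 3 day 0 arrays (intact bone) and 3 day 7 arrays (callus) of RAG1-/- mice, with 1 point for each array. The day 7 points of Ctsk lie between 10.82 and 10.96, above those of day 0 at 8.75 to 9.04, and those of S100a8 lie between 10.33 and 10.60, below those of day 0 at 12.95 to 13.02.

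The promoters of 4 genes are shown, as 2 pairs that changed together. Mmp13 (collagenase 3) and Spp1 (osteopontin), which were higher at day 7, each hold the letters AACCACA, a form of the Runx binding motif, and Stfa1 and Stfa2 (stefins of the neutrophil lineage), which were lower, share a run of 21 bases next to the start. Each is the 250 bases before the gene's start in RefSeq (GRCm38.p6), 5′ to 3′ on the gene's strand, with the motif or the shared run in capitals. The motif was searched on both strands and was found in 1444 of 32851 promoters of that length (4.4%). A match is therefore common and does not by itself mark a site, and binding was not tested. In the same window of Ctsk and of Bglap these exact letters were not present. Without the first letter, ACCACA is present in the windows of Bglap, Stfa1 and Stfa2 as well. The letters therefore do not separate genes that rose from genes that fell. Mmp13 lies at chr9:7272264-7272513 (+ strand), Spp1 at chr5:104434861-104435110 (+ strand), Stfa1 at chr16:36276898-36277147 (+ strand) and Stfa2 at chr16:36408364-36408613 (- strand).
Mmp13: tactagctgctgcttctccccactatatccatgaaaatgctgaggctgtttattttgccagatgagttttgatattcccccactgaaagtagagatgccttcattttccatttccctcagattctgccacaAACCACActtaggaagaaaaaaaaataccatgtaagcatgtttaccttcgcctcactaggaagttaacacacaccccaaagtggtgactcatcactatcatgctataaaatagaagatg
Spp1: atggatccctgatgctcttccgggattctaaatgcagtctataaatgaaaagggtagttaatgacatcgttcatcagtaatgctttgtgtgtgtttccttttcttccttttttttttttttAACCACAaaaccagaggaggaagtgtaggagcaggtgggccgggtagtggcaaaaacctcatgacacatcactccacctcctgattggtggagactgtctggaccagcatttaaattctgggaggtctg
Stfa1: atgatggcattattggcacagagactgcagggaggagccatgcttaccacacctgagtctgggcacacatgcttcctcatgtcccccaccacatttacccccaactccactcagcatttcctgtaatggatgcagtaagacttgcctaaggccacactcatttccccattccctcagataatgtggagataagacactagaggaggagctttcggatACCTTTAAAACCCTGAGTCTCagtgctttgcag
Stfa2: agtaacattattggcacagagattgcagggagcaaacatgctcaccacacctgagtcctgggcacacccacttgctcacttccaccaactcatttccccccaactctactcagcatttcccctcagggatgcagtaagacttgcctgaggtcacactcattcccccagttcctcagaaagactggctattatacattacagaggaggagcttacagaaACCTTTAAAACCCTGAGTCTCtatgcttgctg

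Of 15 tested osteoclast genes 3 were higher at day 7, and the defining enzyme Acp5 was at background. Ctsk, cathepsin K, read 9.04, 8.85 and 8.75 in intact bone and 10.82, 10.96 and 10.82 in callus, a 3.96-fold rise (log2 difference 1.98, SE 0.17, adjusted p = 1.35e-09). All 3 callus arrays lay above those of intact bone. Ckb, the brain-type creatine kinase that supplies energy to osteoclasts, rose from 11.48, 11.55 and 11.41 to 13.16, 13.16 and 12.98 (difference 1.63, SE 0.11, adjusted p = 2.23e-11). Mmp9, a gelatinase of osteoclasts and neutrophils, rose from 8.55, 8.70 and 8.56 to 9.83, 10.02 and 9.81 (difference 1.28, SE 0.12, adjusted p = 1.46e-08). No gene of the list was lower, and its median was 0.21 against 0.03 over all genes. Tcirg1, a subunit of the proton pump, moved by 0.73 and did not reach 2-fold, Cst3, the cystatin that inhibits cathepsins, differed by -0.44, and Acp5 read 4.66 and 4.78 on average, around the level of the filter. Outside the list, Nhedc2, an osteoclast sodium-proton exchanger now named Slc9b2, had the largest rise of all tested genes, from 4.43, 4.37 and 4.28 to 6.52, 6.54 and 6.69 (difference 2.22, SE 0.37, adjusted p = 8.98e-05), and its day 0 values lay at background, so that the size is a low estimate. Src, the kinase needed for the ruffled border and chosen after its values were seen, rose by 1.49 (SE 0.26, adjusted p = 0.000169). Of the pair of genes that sets osteoclast formation, Tnfsf11 (RANKL) was at 4.76 in both groups, around the level of the filter. Whether it changed cannot be read there. Tnfrsf11b (osteoprotegerin) read 6.00, 6.22 and 6.03 against 5.73, 5.46 and 5.67 (difference -0.46, adjusted p = 0.224).

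Osteocalcin and osteopontin rose at day 7, and most osteoblast genes tested were not called. Bglap2, osteocalcin 2, read 10.25, 10.16 and 10.07 in intact bone and 11.93, 12.10 and 11.94 in callus (difference 1.83, SE 0.13, adjusted p = 5.95e-11). Bglap1, osteocalcin 1, rose by 1.78, and since these genes on chromosome 3 are near-identical, their probes cannot be taken as separate measurements. Spp1, osteopontin, which anchors osteoclasts to mineral and is made by osteoblasts and macrophages as well, rose from 7.82, 7.51 and 7.76 to 9.33, 9.48 and 9.47 (difference 1.73, SE 0.25, adjusted p = 1.38e-05). Of 19 tested genes of the osteoblast and osteocyte list 4 were called higher, these included, and none lower, with a median of 0.28. Sp7 (osterix), the factor that commits cells to the osteoblast fate, read 9.92 and 9.99 on average, Akp2 (tissue-nonspecific alkaline phosphatase) 9.81 and 9.90, Ifitm5, an osteoblast membrane protein, 9.23 and 9.32, and Ibsp, bone sialoprotein, 10.70 and 10.93, with adjusted p between 0.584 and 1 for these 4. A second probe of Ibsp went the other way, from 11.22 to 10.34 (-0.88), so that Ibsp has no settled direction. Runx2 (4.56 and 4.60) and Dmp1, an osteocyte matrix protein (4.54 in both), did not pass the filter. Gja1, the gap junction protein of osteocytes, differed by 0.48 (adjusted p = 0.0566).

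Of 18 tested matrix proteases and inhibitors 4 rose, while none of 21 collagen genes was called. Mmp13, collagenase 3, the collagenase of hypertrophic cartilage and osteoblasts, rose from 9.96, 10.06 and 9.97 to 11.87, 11.96 and 11.93 (difference 1.93, SE 0.10, adjusted p = 1.25e-13), the gene with the promoter shown first above. Timp1, an inhibitor of these enzymes, rose from 10.24, 10.33 and 10.33 to 11.89, 12.09 and 11.74 (difference 1.60, SE 0.10, adjusted p = 1.15e-11). Plau, urokinase, rose by 1.90 with an adjusted p of 0.00987, close to the limit. Mmp9, above, was the remaining one called, none was lower, and the median was 0.50. Mmp2, the gelatinase of fibroblasts, differed by 0.58 and Timp2 by 0.08. No fibrillar collagen of 10 tested and no other collagen of 11 tested was called. Col1a1 read 12.49, 12.55 and 12.64 in intact bone and 12.03, 11.57 and 11.89 in callus, which do not overlap and differed by -0.73 (SE 0.15, adjusted p = 0.00101), under 2-fold. Its partner chain Col1a2 read 9.12, 9.34 and 9.60 against 9.57, 9.55 and 9.79 (difference 0.28, adjusted p = 0.794), where the groups overlapped. Col5a1 (0.68) and Col6a1 (0.62) differed upwards, also under 2-fold, and all 11 of the other collagens had a positive difference, with a median of 0.45. Among 18 tested genes of collagen folding and crosslinking, 2 rose: Adamts2, which trims the amino propeptide of procollagen (1.22, SE 0.16, adjusted p = 2.38e-06), and Plod3, which hydroxylates and glycosylates its lysines (1.11, SE 0.10, adjusted p = 1.53e-08).

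In the wound matrix list 2 of 19 tested genes rose and 1 fell. Tgfbi, a matrix protein induced by TGF beta, rose by 1.11 (SE 0.19, adjusted p = 0.000116), and Efemp2, which assembles elastic fibres, by 1.07 (SE 0.12, adjusted p = 6.15e-07). Mfap4, a protein of elastic microfibrils, fell by 1.35 (SE 0.35, adjusted p = 0.0082). Ctgf, connective tissue growth factor, reached 0.98, just under 2-fold, and Sparc, osteonectin, differed by -0.39. Of 9 small leucine-rich proteoglycans none was called. Lum, lumican, chosen after its values were seen, read 9.80, 9.95 and 9.85 against 8.32, 8.38 and 8.40 without overlap, and its adjusted p was 0.0109 with all arrays and 3.2e-08 with the RAG1-/- arrays alone. Acta2, smooth muscle actin of vessel walls and myofibroblasts, was the 1 gene of 21 called on the progenitor and myofibroblast list, rising from 11.74, 11.70 and 11.63 to 12.86, 12.83 and 12.89 (difference 1.17, SE 0.11, adjusted p = 1.71e-08).

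Most cartilage genes were not called at day 7. Of 23 cartilage genes on the array 11 passed the filter, 1 was called, and the median was 0.17. Matn4, matrilin 4, rose from 9.31, 9.07 and 9.10 to 10.41, 10.44 and 10.36 (difference 1.24, SE 0.14, adjusted p = 2.15e-07). Col2a1, the collagen that defines cartilage, read 8.18, 8.00 and 8.15 in intact bone and 7.59, 7.75 and 7.55 in callus. These do not overlap and differed by -0.48, under 2-fold. The adjusted p was 0.745 with all arrays and 0.00133 with the RAG1-/- arrays alone. Comp, a matrix protein of cartilage and tendon, read 8.52 and 8.47. Col9a2, a chain of the type IX collagen on cartilage fibrils, went from 7.79 to 8.21, under 2-fold (adjusted p = 0.228 and 0.00594 by the same fits). Sox9 (4.71 and 4.84), the master factor of chondrocytes, was around the filter level in both groups, as were Col10a1 (4.34 and 4.34) and Ihh (4.82 and 4.59), which mark hypertrophic chondrocytes. Of 12 tested genes of hypertrophic cartilage and mineralization, Mmp13 and Enpp1 rose and Vegfa fell. Enpp1, which makes the mineralization inhibitor pyrophosphate, went from 6.25, 5.92 and 5.93 to 7.42, 7.51 and 7.42 (difference 1.41, SE 0.31, adjusted p = 0.00187). Vegfa, which draws vessels into bone, went from 8.59, 8.27 and 8.65 to 6.67, 6.87 and 6.99 (difference -1.67, SE 0.22, adjusted p = 5.55e-06), while a dimmer probe for it differed by -0.51.

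**Figure D2:**
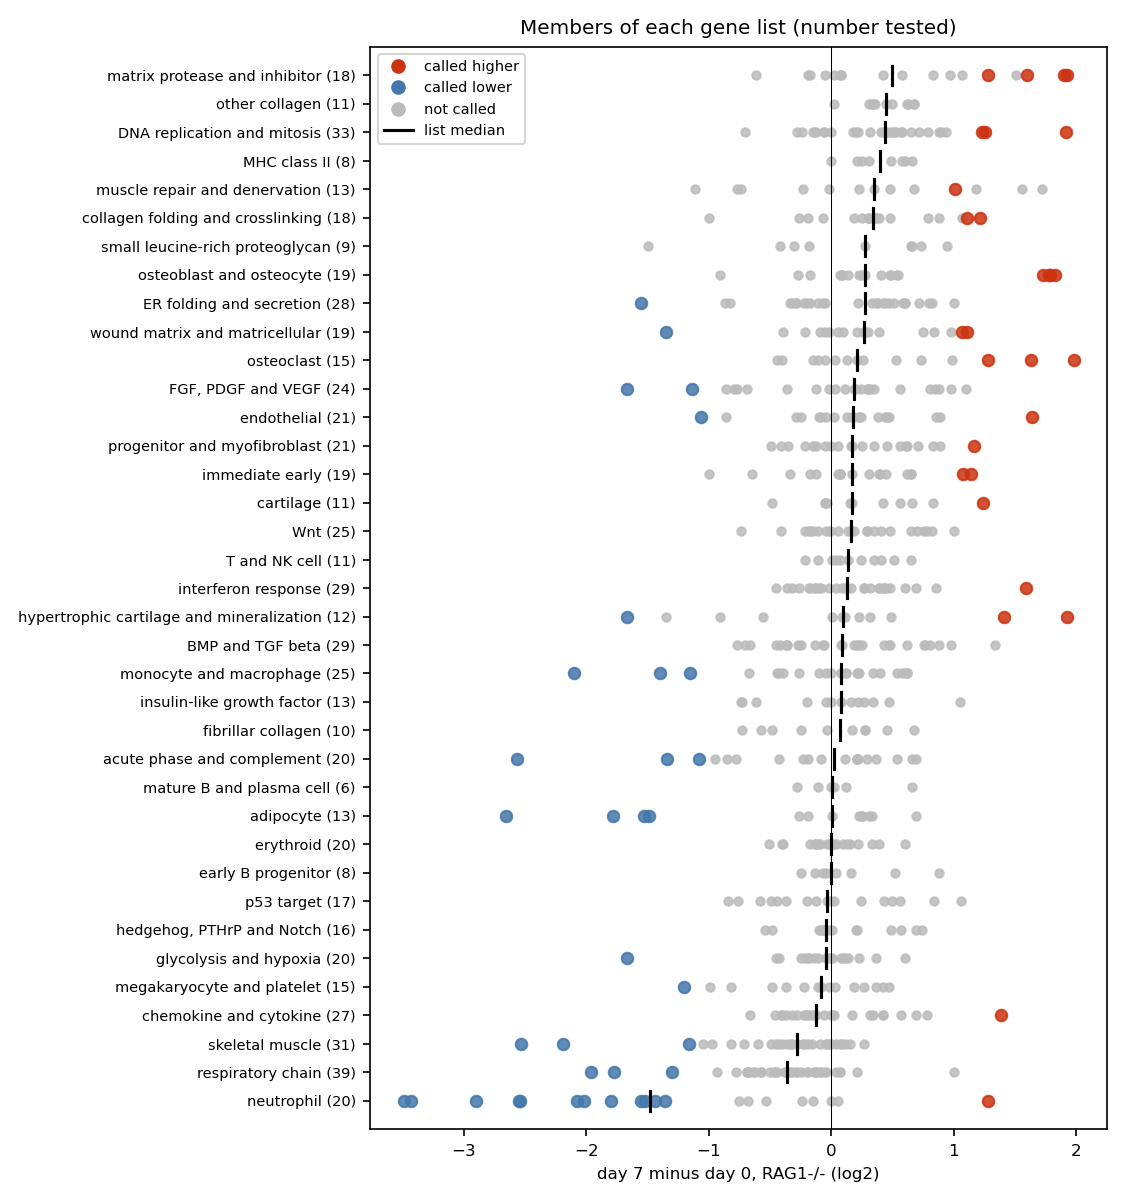
Difference of day 7 minus day 0 (log2, horizontal axis) for each tested gene of the lists in RAG1-/- bone, 1 point for each gene, with called genes coloured. The neutrophil list lies mostly to the left, with 12 of 20 genes lower and a median of -1.48, and the lists of matrix proteases and of DNA replication have medians of 0.50 and 0.44.

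The neutrophil list was the most shifted of the 37 lists. Of 20 tested genes 12 were lower, 1 (Mmp9, above) was higher, and the median was -1.48 against 0.03 over all genes. Stfa1 read 8.42, 8.47 and 8.47 in intact bone and 4.75, 5.13 and 5.02 in callus, an 11.2-fold fall (difference -3.49, SE 0.43, adjusted p = 1.62e-06), where the callus arrays lie at the dim end of the scale and the fall is a low estimate. Stfa2, its neighbour on chromosome 16, went from 9.17, 9.20 and 9.03 to 5.60, 5.86 and 5.64 (difference -3.43, SE 0.22, adjusted p = 9.68e-12), and the genes of this stefin cluster resemble each other closely enough that their probes may share signal. Ngp, a neutrophilic granule protein, went from 7.96, 8.05 and 7.93 to 5.01, 5.10 and 5.14 (difference -2.90, SE 0.21, adjusted p = 6.45e-11). S100a8, a calcium-binding protein abundant in neutrophil cytosol, went from 13.02, 12.95 and 12.97 to 10.37, 10.60 and 10.33 (difference -2.55, SE 0.18, adjusted p = 6.04e-11). Lcn2, lipocalin 2 of the secondary granules, went from 9.51, 9.43 and 9.60 to 6.99, 7.08 and 6.86 (difference -2.54, SE 0.35, adjusted p = 7.02e-06). In none of these 5 genes did the groups overlap. Further members, chosen after their values were seen, fell less: Ltf, lactoferrin, by 1.55, Camp, cathelicidin, by 1.52, and S100a9, the partner of S100a8, by 1.36.

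The genes of primary granules, which mark earlier precursors, were not called. Mpo, myeloperoxidase, read 9.55, 9.46 and 9.55 in intact bone and 9.38, 9.50 and 9.67 in callus (difference -0.00, SE 0.27, adjusted p = 1). Prtn3, proteinase 3, differed by -0.24 (adjusted p = 0.703). The other serine proteases of these granules, Ela2 (neutrophil elastase, -0.15) and Ctsg (cathepsin G, -0.68), were chosen after their values were seen. The groups of Mpo overlapped, and those of Prtn3, at 7.93, 7.91 and 8.01 against 7.63, 7.66 and 7.83, did not.

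Monocyte and macrophage genes were mostly level, with 3 of 25 lower, none higher and a median of 0.08. Lyz2, lysozyme M of macrophages and neutrophils, went from 9.28, 9.28 and 9.18 to 7.00, 7.26 and 7.18 (difference -2.10, SE 0.38, adjusted p = 0.000245). Mrc1, the mannose receptor of tissue macrophages, fell by 1.40 (SE 0.32, adjusted p = 0.0027) and Ly6c1 by 1.15 (SE 0.22, adjusted p = 0.000548). Gpnmb, a lysosomal glycoprotein of macrophages and osteoclasts, differed by 0.60, under 2-fold. Among 20 acute phase and complement genes 3 fell. Serpina3n, a serine protease inhibitor of the acute phase, went from 11.60, 11.65 and 11.68 to a mean of 9.07 with a highest array of 9.20 (difference -2.57, SE 0.59, adjusted p = 0.00304 with all arrays and 1.49e-11 with the RAG1-/- arrays alone). C3, the central complement component, fell by 1.34 (SE 0.16, adjusted p = 8.76e-07), and Serping1, the inhibitor of C1, by 1.08 (SE 0.15, adjusted p = 9.73e-06).

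Of the other immune lists, 1 gene of 29 interferon response genes and 1 of 27 chemokines and cytokines rose. Ifit3, an interferon-induced antiviral protein, went from 6.21, 6.09 and 5.97 to 7.78, 7.65 and 7.61 (difference 1.59, SE 0.32, adjusted p = 0.000727), and Cxcl16, a chemokine of macrophages, rose by 1.39 (SE 0.35, adjusted p = 0.00703). All 8 MHC class II genes tested missed the call, with a median of 0.40, H2-Ab1 differing by 0.49 and Cd74, the chain that guides them, by 0.66. None of 20 erythroid genes was called, and 1 of 15 megakaryocyte and platelet genes, Cd9, a tetraspanin that many other cells carry, fell by 1.20 (SE 0.30, adjusted p = 0.00681).

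A few genes of the sarcomere fell, and most muscle genes were not called. All 31 skeletal muscle genes on the array passed the filter, 3 were lower, none was higher, and the median was -0.28. Myot, a protein of the Z disc, went from 8.71, 8.83 and 8.74 to 6.17, 6.12 and 6.41 (difference -2.53, SE 0.31, adjusted p = 1.42e-06). Myh7, the myosin heavy chain of slow fibres, went from 6.51, 6.67 and 6.59 to 4.33, 4.47 and 4.40 (difference -2.19, SE 0.14, adjusted p = 1.92e-11), where the callus values are at background and the fall is a low estimate. Ttn, titin, fell by 1.16 (SE 0.12, adjusted p = 7.48e-08). The slow light chains outside the list, chosen after their values were seen, fell with them, Myl3 by 1.43 and Myl2 by 1.12. Myl1, a light chain of fast fibres, read 14.80, 14.93 and 14.93 against 14.43, 14.43 and 14.53 (difference -0.43, adjusted p = 0.0589). Pdlim5, a Z disc adaptor outside the list, went from 6.81, 6.92 and 6.88 to background at 4.41, 4.39 and 4.30 (difference -2.50, SE 0.17, adjusted p = 2.23e-11), while a dim probe for it (4.81 and 4.87) did not move.

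Of 13 tested genes of muscle repair and of denervated muscle 1 was called. Myl4, the embryonic light chain, rose from 11.54, 11.61 and 11.60 to 12.62, 12.53 and 12.62 (difference 1.01, SE 0.21, adjusted p = 0.00135). The other genes were chosen after their values were seen. Myog, myogenin, which drives fusion of myoblasts, read 6.02, 5.97 and 6.28 against 7.84, 7.79 and 7.79 without overlap, a difference of 1.72 with an adjusted p of 0.0121 on all arrays and 2.17e-08 on the RAG1-/- arrays alone. Ncam1 (1.56, adjusted p = 0.0221 and 4.11e-09 by the same fits) and Chrng, the fetal acetylcholine receptor subunit (1.18, adjusted p = 0.0281 and 3.38e-08), did likewise, so that the RAG1-/- arrays alone called 4 of 13 higher, and 1, Myf6, a regulator of muscle fibres, lower (-1.11). Dim second probes of Myog (4.75 and 4.87) and Ncam1 (4.87 and 4.65) did not show these rises. Chrnb1, the beta subunit of that receptor, differed by -0.77, under 2-fold. Soft tissue was removed before the RNA was made, but the bright muscle genes show that both pools held muscle RNA. The share of muscle RNA in each pool and its part in the changes were not tested.

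Fat and energy genes fell in part. Of 13 adipocyte genes 4 fell, none rose and the median was 0.01. Car3, carbonic anhydrase 3, which is abundant in fat and slow muscle, went from 8.70, 8.62 and 8.73 to 5.86, 6.23 and 5.97 (difference -2.66, SE 0.36, adjusted p = 5.96e-06). Lpl, lipoprotein lipase, went from 12.98, 13.04 and 13.02 to 11.19, 11.10 and 11.41 (difference -1.78, SE 0.17, adjusted p = 2.75e-08). S3-12, a lipid droplet protein now named Plin4, fell by 1.53, and Slc2a4, the insulin-responsive glucose transporter, by 1.49. All 4 are also made by skeletal muscle. Adipoq, adiponectin, the hormone of fat cells, was low (5.23 and 5.46, chosen after its values were seen), and Cfd, adipsin, differed by 0.69 upwards. In the respiratory chain list 3 of 39 genes fell, none rose, and the median was -0.36. Cyc1, cytochrome c1, went from 9.51, 9.60 and 9.61 to 7.75, 7.89 and 7.78 (difference -1.77, SE 0.13, adjusted p = 5.95e-11), Atp5j of the ATP synthase fell by 1.96 (SE 0.31, adjusted p = 5.6e-05) and Sdhb of succinate dehydrogenase fell by 1.30 (SE 0.31, adjusted p = 0.00415). Atp5b, the catalytic beta subunit, was not called (13.93 and 14.14). Of 20 glycolysis and hypoxia genes Vegfa alone was called, and Tpi1 read 13.00 and 12.97.

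Further large falls lay outside the lists. Inmt, a methyltransferase of small amines, went from 8.31, 8.22 and 8.27 to 5.66, 5.49 and 5.40 (difference -2.75, SE 0.36, adjusted p = 3.26e-06). Hspa8, the constitutive heat shock chaperone, went from 7.60, 7.85 and 7.74 to 5.40, 5.45 and 4.99 (difference -2.45, SE 0.26, adjusted p = 7.7e-08), and many processed copies of this gene exist. Calr, calreticulin, fell by 1.55 (SE 0.21, adjusted p = 5.35e-06) and was the 1 gene called of 28 in the list of protein folding in the endoplasmic reticulum. Its chaperone neighbour Hsp90b1 differed by 0.51.

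Cyclin D2 and 2 mitotic genes rose, and histone genes moved in both directions. Of 33 tested genes of DNA replication and mitosis 3 rose, none fell and the median was 0.44. Ccnd2, cyclin D2, which drives entry into the cell cycle, rose from 6.78, 6.73 and 7.23 to 8.72, 8.77 and 9.01 (difference 1.92, SE 0.26, adjusted p = 5.89e-06), Kif22, a mitotic kinesin, by 1.26 (SE 0.13, adjusted p = 4.54e-08) and Birc5, survivin, by 1.23 (SE 0.19, adjusted p = 3.42e-05). Ccnd1 differed by 0.94, just under 2-fold. Hist1h2ao, an H2A gene, rose from 10.64, 10.32 and 10.96 to 12.49, 12.66 and 12.79 (difference 2.01, SE 0.19, adjusted p = 2.07e-08), and Hist1h2ak (1.89) and Hist2h2ac (1.83) rose too. All histone genes named Hist on the array were then counted by class, after these values were seen. Of 13 tested H2A genes 6 were called higher and none lower (median 1.51), of 11 H2B genes none higher and 3 lower (median -0.36), of 9 H4 genes none higher and 1 lower (median -0.50), and none of 5 H3 and 2 H1 genes was called. Hist1h2bf fell by 1.25 (SE 0.21, adjusted p = 0.000119) and Hist1h2bh fell by 1.35 (SE 0.24, adjusted p = 0.000193), and Hist1h4h, an H4 gene, by 1.83 (SE 0.34, adjusted p = 0.000345). The histone genes of 1 class are nearly identical, so that their probes may read several copies at once. None of 17 p53 targets was called.

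Vascular and signalling genes changed singly. Plvap, the protein of the diaphragms of fenestrated vessels, rose from 8.01, 7.84 and 7.89 to 9.68, 9.65 and 9.34 (difference 1.64, SE 0.17, adjusted p = 6.44e-08), and Sox17, a factor of arterial endothelium, fell by 1.06 (SE 0.28, adjusted p = 0.00944), as 2 of 21 endothelial genes with a median of 0.18. Of the growth factors, Vegfa and Fgf1, an acidic fibroblast growth factor, were the 2 called of 24 in the FGF, PDGF and VEGF list, and Fgf1 went from 6.00, 5.98 and 6.05 to 5.11, 4.55 and 4.94 (difference -1.14, SE 0.24, adjusted p = 0.0015). None of 29 BMP and TGF beta genes, 25 Wnt genes, 13 insulin-like growth factor genes and 16 hedgehog, PTHrP and Notch genes was called. Tgfb1, chosen after its values were seen, read 6.94, 6.83 and 6.96 against 8.33, 8.30 and 8.11 without overlap (difference 1.34, adjusted p = 0.0201 on all arrays and 4.11e-09 on the RAG1-/- arrays alone). Of 19 immediate early genes Jund1 (1.14, SE 0.23, adjusted p = 0.000938) and Junb (1.08, SE 0.26, adjusted p = 0.00492), subunits of AP-1, rose. Agpat4, an acyltransferase of phospholipid synthesis, was among the largest rises, from 7.38, 7.20 and 7.00 to 9.21, 9.18 and 9.08 (difference 1.96, SE 0.14, adjusted p = 6.62e-11).

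Genes that changed by day 7 followed different courses over the other days. No gene was called higher at day 7 than at each of the other 5 RAG1-/- days (0% of those tested), and none was called lower than at each of them (0%). At an unadjusted p under 0.05 and over 2-fold, 1 gene was higher, Mall, and 1 was lower, Asah1, the acid ceramidase of lysosomes, and limma on the RAG1-/- arrays alone called the same 2. Acta2 (12.86), Junb (9.55), Plvap (9.56), Kif22 (8.57), Plod3 (10.93) and Ncam1 (8.66) had their highest mean at day 7, each by less than 2-fold over its day 3 mean. Ctsk went on from 10.87 at day 7 to 13.09 at day 14 and 13.14 at day 21 before 9.69 at day 28, and Mmp13 from 11.92 to 13.71, 13.01 and 11.42. Bglap2 read 11.99, 12.56, 13.19 and 11.39 on these days. Stfa1, already at 6.13 on day 3, stayed between 4.65 and 4.96 from day 7 on. S100a8 was lowest on day 14 at 8.48, between 10.43 at day 7 and 10.75 at day 21. Mpo, at 9.52, 9.83 and 9.52 on days 0, 3 and 7, read 6.63 at day 14. Myog read 7.81 on day 7 and 8.59 on day 28, with 4.98 on day 14.

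**Figure D3:**
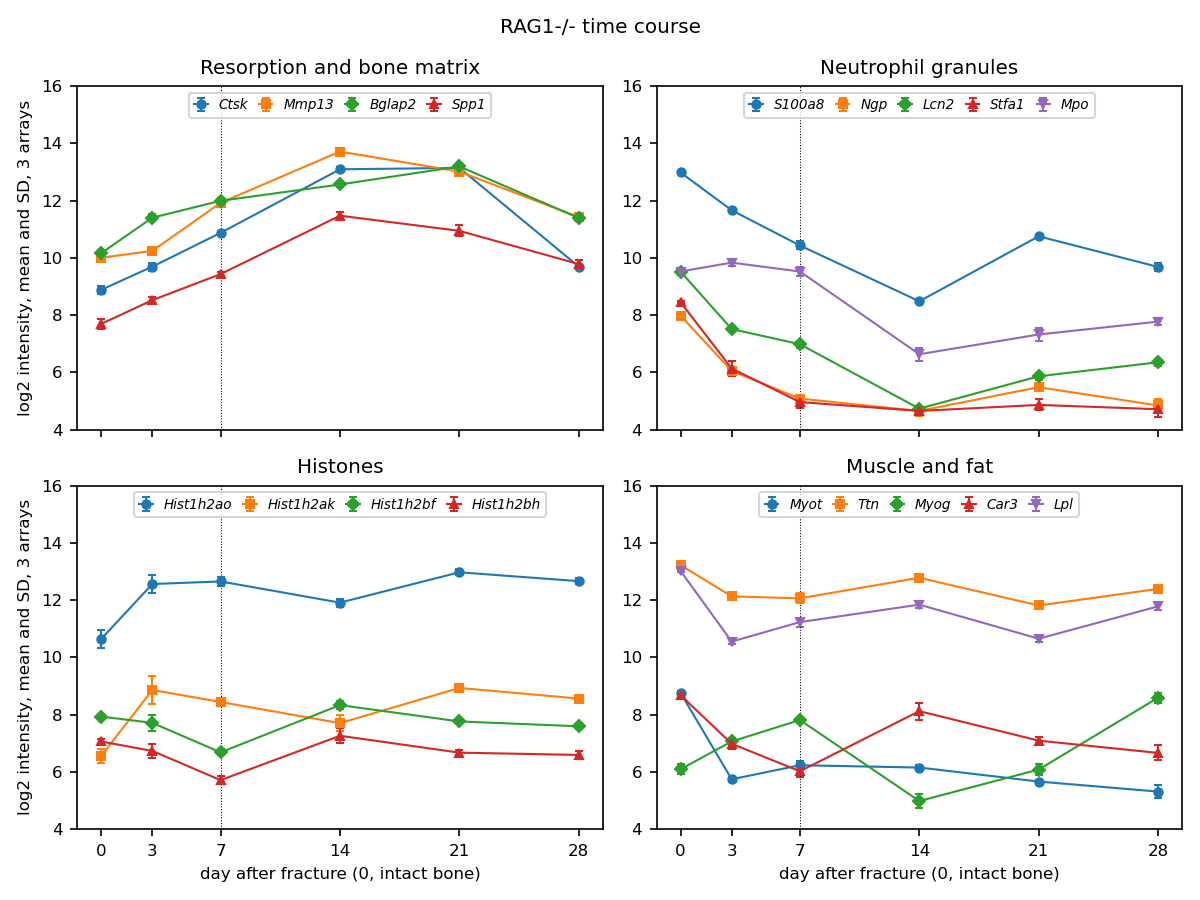
Mean log2 intensity and SD of the 3 arrays of each RAG1-/- group against the day after fracture (day 0 is intact bone), with a dotted line at day 7. Ctsk and Mmp13 rise past day 7 to 13.09 and 13.71 at day 14, and S100a8 falls through 10.43 at day 7 to 8.48 at day 14.

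The change to day 7 was then set beside that in WT mice, where 1253 genes were higher (12.2%) and 1441 lower (14.0%). The WT day 7 arrays correlated with each other at only 0.885 to 0.906, and where 2 probes of a gene both had an adjusted p under 0.05 in WT they went opposite ways in 115 of 506 genes, against 1 of 91 in RAG1-/-, so WT values are given beside each comparison. The part of these arrays in the differences was not tested. Of the 105 genes higher in RAG1-/- callus 50 were also called higher in WT (47.6% of the RAG1-/- list and 3.99% of the WT list), and 7 were called lower there. Of the 185 lower genes 122 were also lower in WT (65.9% and 8.47%), and 3 were higher. The difference of the 2 changes, tested in the same fit, was called positive (RAG1-/- change minus WT change) for 1013 genes (9.84%) and negative for 728 (7.07%), and a shift of each array to 1 median turned this split to 876 and 957. In most of them the WT change was the greater in size, 949 of the 1013 and 667 of the 728.

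Several bone-forming genes rose in WT and were not called in RAG1-/-. Dlx3, a homeobox factor of osteoblasts, read 5.82 and then 10.46 in WT against 7.91 and 8.46 in RAG1-/- (difference of changes -4.09, SE 0.37, adjusted p = 1.44e-09). Sp7 read 8.54 and 11.82 against 9.92 and 9.99 (difference of changes -3.21, SE 0.24, adjusted p = 4.57e-11) and Col1a2 8.00 and 11.75 against 9.35 and 9.64 (-3.47, SE 0.45, adjusted p = 6.88e-07). Panx3, a channel of osteoblasts and hypertrophic chondrocytes, had the most negative difference, -4.14 (SE 0.68, adjusted p = 2.38e-05), from 5.89 to 9.12 in WT against 11.41 and 10.50. In each of these 4 genes intact RAG1-/- bone was above intact WT bone by more than 1 on the log2 scale. Col24a1, a minor fibrillar collagen of bone, differed by -3.97 and Ranbp3l by -3.96. A second probe of Col24a1 gave -1.06, so that the size of its difference is not settled. The brighter probe of Ibsp rose in WT from 8.69 to 12.48 and gave -3.56, while the second fell there from 8.19 to 6.64 and gave 0.66, so that no difference between genotypes is read from Ibsp.

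Resorption and matrix genes that rose in RAG1-/- were set beside WT in the same way. The rise of Mmp13 differed by -0.27 (SE 0.14, adjusted p = 0.157) and that of Spp1 by 0.46 (SE 0.35, adjusted p = 0.385), and that of Ctsk was larger in RAG1-/- by 0.86 (SE 0.23, adjusted p = 0.00568), under 2-fold. Nhedc2 (-1.62, adjusted p = 0.0198) and Src (-1.23, adjusted p = 0.0119) had differences below 0 that were not called, and Tcirg1 went from 7.40 to 9.59 in WT, a called difference of -1.46 (SE 0.23, adjusted p = 1.21e-05). Bglap2 differed by 0.31 (SE 0.19, adjusted p = 0.243), while the probe of Bglap1 fell in WT from 11.53 to 10.96, so that these near-identical copies disagreed there. Stfa1 (4.67 and 5.26) and Stfa2 (4.67 and 4.88) were near background in WT bone at both times, which gave differences of changes of -4.08 and -3.65. S100a8 fell further in WT, from 12.85 to 7.69, and Ltf, which fell in RAG1-/-, read 11.92 and 12.71 there.

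The differences with the opposite sign were led by genes that fell steeply in WT. Mylpf, a light chain of fast muscle, read 14.27 and 5.04 in WT and 13.75 and 13.15 in RAG1-/- (difference of changes 8.62, SE 0.22, adjusted p = 3.22e-21), Atp5j differed by 4.95 and the ribosomal protein gene Rpl31 by 5.00, though a second probe of each gave 0.61 and 0.45. Ptn, pleiotrophin, a growth factor of bone and cartilage, read 8.42 and 4.51 in WT and 7.28 and 8.38 in RAG1-/- (5.01, SE 0.62, adjusted p = 3.4e-07).

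**Figure D4:**
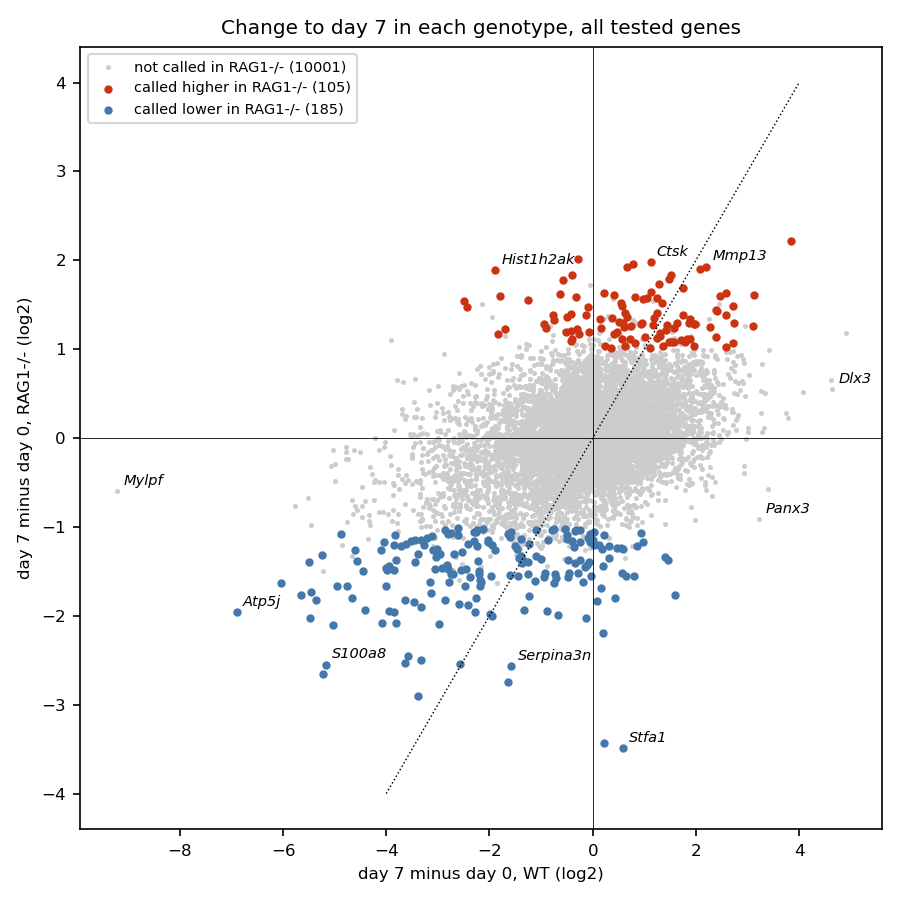
Change from day 0 to day 7 in WT (horizontal axis, log2) against that in RAG1-/- (vertical axis, log2), 1 point for each tested gene, with some genes labelled and a dotted line where both changes are equal. The spread along the WT axis is wider than along the RAG1-/- axis, and Mylpf, at -9.22 in WT and -0.60 in RAG1-/-, lies farthest to the left among the labelled genes.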

How the data were processed

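Total RNA of 5 pooled mice per genotype and day was hybridised to Illumina mouse bead arrays, 3 arrays for each of 12 groups. The authors quantile normalized the intensities in R (beadarray and lumi) and deposited 1 table of values for 25697 probes, which were read as log2 values from their range (4.17 to 15.23), since the table does not state the scale. From these deposited log2 values, probes with a mean above 4.72 over the 36 arrays, the median probe, were kept (12848), and the brightest probe of each symbol stood for the gene (10291 genes). Symbols are those of the array's annotation, of which 8296 are current in RefSeq, 1552 were paired with a current symbol and 443 with none. One mean per group was fitted over all 36 arrays (limma 3.58.1, R 4.3.3), with Benjamini-Hochberg adjustment over all tested genes. A gene was called at an adjusted p under 0.01 and over 2-fold. Array numbers do not pair the groups: same-numbered deviations correlated at -0.045 to 0.020. Depth has no equivalent on arrays, and the 3 arrays of a group limit the precision.

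The study's methods state a two-tailed t-test between the genotypes with Benjamini-Hochberg adjustment and a fold change limit of 1, which was read as log2, and that kind of test was run on day 7 against day 0 as an alternative. A further 264 value columns in the deposited tables are named by chip position, could not be tied to samples and were not used. The named genes are the 12 largest called differences in each direction, up to 5 called and 2 bright uncalled members of each of 37 gene lists, genes the study names for matrix and bone turnover, and the 5 largest differences between genotypes in each direction, of which most are described and some are not reported here, with additions marked where they stand. The markers Rag1, Acp5, Sp7, Akp2, Ifitm5, Dmp1, Cd3d, Cd3e, Sox9, Col10a1 and Ihh and the genes Mall and Asah1 were also added after their values were seen. The groups compared, the gene lists and the rule were chosen with earlier results of these data known. Alternatives were other filters, probes, normalizations, array weights, fits on fewer arrays and other limits.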

Additional observations from a re-analysis of the deposited data

Results flagged for a closer look

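The change from intact bone to day 7 differed between RAG1-/- and WT bone, by the test of the difference itself at an adjusted p under 0.01 and over 2-fold, in 55 of the genes named here. Over all tested genes the difference was called positive in 9.84% and negative in 7.07%. Some of the 55 were named because this difference was large, and others after their values were seen. The count therefore follows in part from the choice of genes. Values are the log2 change in RAG1-/- minus that in WT, so that a value above 0 is a greater rise or a lesser fall in RAG1-/-, and the WT day 7 arrays are those that correlate least with each other, whose part in these differences was not tested.

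Of the genes of bone formation and its matrix, the difference was below 0 for Panx3 (-4.14), Dlx3 (-4.09), Col24a1 (-3.97), Ibsp (-3.56), Col1a2 (-3.47), Sp7 (-3.21), Ifitm5 (-2.44), Efemp2 (-1.65), Comp (-1.59) and Col6a1 (-1.02), together with Tcirg1 (-1.46) of the osteoclast proton pump. It was above 0 for Ptn (5.01), Lum (3.72), Mmp2 (3.30), Bglap1 (2.35) and Cst3 (1.15). Among neutrophil and complement genes it was below 0 for Stfa1 (-4.08), Stfa2 (-3.65), C3 (-2.74), Ltf (-2.35) and Camp (-2.08) and above 0 for S100a8 (2.62), Ela2 (2.21) and Ctsg (2.11), and among macrophage genes it was above 0 for Lyz2 (2.94) and Ly6c1 (2.30).

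Muscle and fat genes differed in both directions, with Chrng (-3.71), Myh7 (-2.38) and Myl2 (-1.02) below 0 and Mylpf (8.62), Car3 (2.56), Cfd (2.52), Adipoq (2.35) and Ttn (1.14) above. Over all tested genes 9.84% had a called difference above 0 and 7.07% below, to be held beside the counts that follow. Of 39 respiratory chain genes 15 had a called difference above 0, among them Atp5j (4.95), Cyc1 (3.89) and Atp5b (2.82), and none below. Rpl31 (5.00) has a second probe at 0.45, Ibsp one at 0.66 and Col6a1 one at 1.55, so that the probes of the last 2 disagree in sign. Second probes of Atp5j (0.61), Col24a1 (-1.06) and Vegfa (0.29) kept the sign with a smaller difference. Of 13 H2A genes 7 were above 0, among them Hist1h2ak (3.78), Hist1h2ao (2.29) and Hist2h2ac (2.24), and 1 was below. Of 11 H2B genes 6 were below, Hist1h2bh (-1.67) and Hist1h2bf (-1.43) among them, and of 9 H4 genes 4, with Hist1h4h (-1.92), and none of either was above.

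The other named genes were Vegfa (2.33), Cd9 (2.07), Ifit3 (1.92), Birc5 (1.53), Acta2 (1.44), Ccnd2 (1.26) and Agpat4 (1.17) above 0 and Ranbp3l (-3.96), Calr (-1.51), Hsp90b1 (-1.51) and Jund1 (-1.25) below 0.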

How the results depend on the processing

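The limits of these data are set by 1 pool of mice per group, by technical arrays, by the dim end of the scale, where probes under the median of 4.72 lie and a fall cannot be followed, and by probes of genes with near-identical copies. The 105 genes higher and 185 lower kept within 1.5 times of these counts under another filter, the mean of the probes, cyclic loess, a shift to 1 median and the methods' t-test (153 and 230). They became 171 higher on the 18 RAG1-/- arrays and on the 6 arrays alone, and 170 and 280 with array weights. A test against 2-fold itself left 10 and 14, a 4-fold limit 2 and 19, and no fold limit gave 427 and 365. The second brightest probe, which only 2021 genes have, gave 16 and 43. There 17 of the called named genes could be tested, of which 4 kept the call and 11 lost it without a turn in sign (Mmp13, Tgfbi, Matn4, Enpp1, Vegfa, Acta2, Sox17, Birc5, Atp5j, Sdhb and Ltf). Of these 11, Mmp13 (0.02) and Sox17 (-0.03) did not move on their dim second probes, so that no direction is read from them. Myot (0.03) and Pdlim5 (0.06) turned in sign on dim probes that did not move either. For the difference from WT, the counts of 1013 positive and 728 negative differences became 205 and 66 with the second brightest probe, 311 and 73 with the test against 2-fold and 512 and 155 with a 4-fold limit. Cyclic loess gave 901 and 867, and a shift to 1 median 876 and 957. Genes higher at day 7 than on each other day numbered 1 on the RAG1-/- arrays alone and 1 with array weights, and genes lower 1, 2 and, with no fold limit, 6. Leaving out 1 array gave 86 to 98 higher, 136 to 152 lower, 910 to 1009 positive and 638 to 807 negative differences from WT, 0 above every other day and 0 to 1 below, the 1 without the third day 7 array. Of 70 called genes that are named, 59 to 61 kept the call when 1 array was left out, and all 70 on the RAG1-/- arrays alone.

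The replicate number as a block, although the numbers pair no samples, gave 102 and 179, 999 and 720, and 0 and 0, and 3 named genes (Mfap4, Sox17 and Cxcl16) lost the call.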
